A study of Mus musculus with 6 samples.

Results

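Mature dendritic cells that carry Fscn1 were found as 66 of the 13545 cell barcodes that passed the depth limits in 2 captures of immune cells from mouse brain tumors, 55 at day 13 and 11 at day 19. Dendritic cells take up antigen and present it to T cells. When they mature they lose their uptake program, raise costimulatory and MHC molecules, and gain Ccr7, the receptor that guides them to lymphatic vessels and lymph nodes. Such cells have been described in many tumors, where they combine T cell stimulating genes with ligands that restrain T cells.

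The tumors were grown in the brain from CT2A, a mouse glioma line, in wild-type C57BL/6J mice of 6 to 8 weeks of age. The labels describe a sort for CD3+ cells that also carried CD4 or CD8, so dendritic cells were not the population that the sort was set to keep. At day 13, 16 mice were used in pools of 4, and at day 19 there were 4 mice. Each day is 1 capture on the 10x Genomics 5' platform, with RNA, 138 antibody tags and T cell receptor contigs read from the same barcodes.

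A member had at least 5000 UMIs of genes (a UMI marks 1 captured molecule), at most 10% of them mitochondrial, and no entry in a T cell receptor contig table of its day. It had at least 3 UMIs of Fscn1, 2 of Ccr7 and 10 of H2-Ab1, none of the microglia genes P2ry12 and Tmem119, and at most 1 of Cd3d, Cd3e and Cd3g together. These genes chose the members, so their levels are given only as a description. The comparison group was the barcodes with at least 2 UMIs of Cd209a, a lectin of type 2 dendritic cells, and at most 1 of Fscn1, under the same limits. It held 126 barcodes at day 13 and 43 at day 19. Members made up 1.30% of the barcodes outside the contig tables at day 13 (95% exact binomial interval 0.977 to 1.68%, 55 of 4246). At day 19 they made up 0.758% (0.379 to 1.35%, 11 of 1452), and these intervals overlapped. Of all barcodes past the depth limits they made up 0.620% (0.467 to 0.806%, 55 of 8878) at day 13. At day 19 this share was 0.236% (0.118 to 0.421%, 11 of 4667), and these intervals did not overlap. With 1 capture per day, a difference between the days was not tested.

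Each day is 1 capture. A multiplexing tag could be read in few members, and the labels do not link the tags to pools or mice. There are therefore no replicates to compare and no p-value is given anywhere. Levels are UMIs summed over the barcodes of a group and divided by the group's total, in CPM (a gene's UMIs scaled to one common total). Ratios are given as log2 with a 95% exact interval for the 2 sums. All intervals cover counting error only, not differences between mice or cells. A gene was compared where both sums together held at least 50 UMIs, and called higher or lower at a 2-fold difference, a log2 ratio of 1. Members held 645878 UMIs in all at day 13, with a median of 9348 per barcode, and 126880 at day 19, with a median of 9681. The Cd209a-positive groups had close medians of 9931 and 10218.

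Members were a minority of the barcodes that met the thresholds for Fscn1, Ccr7 and H2-Ab1. Past the depth limits 432 barcodes met them at day 13 and 150 at day 19, members included. Of these, 65 and 45 were in a contig table, and 205 and 87 were outside one but held a microglia gene. A further 107 and 7 had more than 1 UMI of the Cd3 genes. How many of these were mixed droplets was not tested. At day 13, 3 members lay at the minimum for Fscn1 and 1 at that for Ccr7, and these 4 together held 17 UMIs of Fscn1 and 130 of Ccr7. A single barcode just outside held 2 and 11. At day 19 no member lay at a minimum, and 1 barcode outside held 2 UMIs of Fscn1 and 34 of Ccr7. The captures shared 62 barcode sequences past the UMI limit, of 8879 and 4667.

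A further 4 genes that mark mature dendritic cells were not used by the rule, and all were high in the members. They are Ccl22, a chemokine that draws Ccr4-bearing T cells, Cacnb3, a calcium channel subunit, Il4i1, an enzyme that breaks down amino acids, and Mreg, a vesicle transport protein. At day 13, 45 of the 55 members held a UMI of at least 3 of these genes, and 1 held none. At day 19, 8 of 11 did so. No Cd209a-positive barcode of either day held 3 of them. The members bore the label's markers also in genes that the rule did not use. These genes were listed with earlier results of these data known, so they are no independent check of the label. The Cd209a-positive group was chosen by low Fscn1, so the difference between the groups in this program follows in part from the choice.

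Ccl22 reached 526 CPM in the day-13 members against 15.1 in the Cd209a-positive group, a log2 ratio of 5.12 (4.46 to 5.87). Single members held from 0 to 45 UMIs of Ccl22 with a median of 2, so the chemokine was concentrated in some of them. At day 19 Ccl22 stood at 473 against 6.84 CPM, and 1 member held 46.7% of its UMIs. Il4i1 was more evenly spread, with a UMI in 52 of 55 members at day 13 and in 11 of 11 at day 19. It stood at 721 against 44.5 CPM at day 13 (4.02, 3.62 to 4.45) and at 1135 against 2.28 at day 19. A single Cd209a-positive barcode carried 53.6% of the Il4i1 UMIs of its group at day 13 and a single one carried 54.9% of the Ccr7 UMIs. Cacnb3 stood at 443 against 3.18 CPM at day 13. Mreg had 211 CPM in members and 0 UMIs in the Cd209a-positive group, which puts its log2 ratio at 6.47 or more with the zero set to a floor of 3 UMIs over the group. With every barcode thinned to 5000 UMIs, a UMI of Ccl22 was left in 50.9% of day-13 members (37.1 to 64.6%), against 4.76% of Cd209a-positive barcodes and 0 of 500 T cell barcodes. For Il4i1 these shares were 85.5%, 7.94% and 0 of 500, and unthinned 94.5% of members held a UMI.

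**Figure D1:**
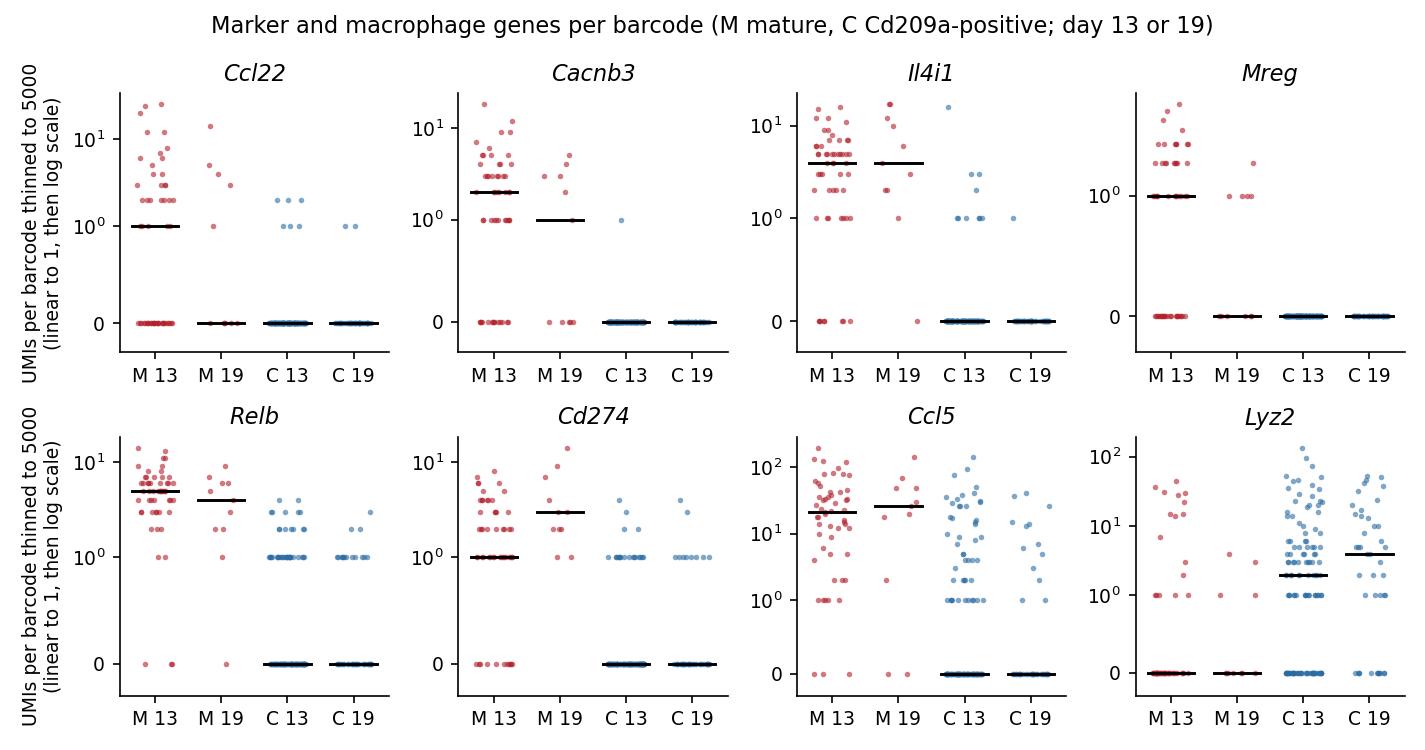
UMIs per barcode after thinning each to 5000, for mature members (M, 55 at day 13 and 11 at day 19) and Cd209a-positive barcodes (C, 126 and 43); each point is a barcode, black bars are medians and the vertical axis is linear to 1 and logarithmic above. The 4 marker genes outside the rule, Relb and Cd274 sit mostly at 0 in the Cd209a-positive barcodes, whereas Lyz2 is at a median of 0 in members with a separate upper group at day 13.

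The defining lectin of type 2 cells and receptor of type 1 cells were nearly absent. Cd209a itself was at 0 UMIs in all 55 members at day 13, although the rule set no limit on it; with a floor of 3 counts, 0 of 55 allows a share of up to 5.45% of barcodes with a UMI, which does not limit the cells that express the gene at this depth. At day 19 it was found in 1 of 11 members, with 14 UMIs. Xcr1, the chemokine receptor of type 1 dendritic cells, had no UMI in any of the 66. Of 6 compared type 1 genes at day 13, 3 were 2-fold or more lower in members and 2, Irf8 and Batf3, higher, with a median log2 ratio of -1.22. The list's summed level was 1468 CPM in members, of which Irf8 made up 760, against 1023 in Cd209a-positive barcodes. Of 10 listed type 2 genes other than Cd209a compared at day 13, 7 were 2-fold or more lower in members and 1 higher, where 13.1% of all 4334 compared genes were lower and 11.1% higher. Clec10a, a lectin of type 2 cells, stood at 4.64 against 222 CPM (log2 ratio -5.58, -7.86 to -4.01), and Ccr2, the receptor for monocyte chemokines, at 66.6 against 264.

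RNA of macrophages was present in a minority of members and differed between the days. Taking 10 or more UMIs of Lyz2, Apoe, C1qa, C1qb and C1qc together as a line set after the data were seen, 13 of 55 members lay above it at day 13 and 1 of 11 at day 19. The 13 were deeper, with a median of 16227 UMIs against 8584 in the other 42. Of the markers outside the rule, Ccl22 stood at 254 CPM in the 13 against 687 in the 42, Il4i1 at 400.3 against 911, Cacnb3 at 321 against 515 and Mreg at 183 against 227. Over the 14 listed monocyte and macrophage genes the members' summed level was 6987 CPM at day 13 and 631 CPM at day 19, against 4444 and 4177 in Cd209a-positive barcodes. At day 19 Adgre1, Mrc1 and Mertk were at 0 in members. At day 13, 4 of 11 compared genes of the list were 2-fold or more higher in members (11.1% of all genes) and 0 lower (13.1%). The 5 genes that set the line belong to this list, so its counts without the 13 follow in part from that line and are not given. Of all 3925 genes compared without them, 11.2% were higher and 18.4% lower. For other lists whose day-13 counts moved by more than 1 gene in a direction without them, both counts are given, and no doublet caller was run.

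T cell RNA was low in the members, at 127 CPM over 15 listed genes at day 13 and 134 CPM at day 19, where Cd3d, Cd3e, Cd3g and Trac were at 0. The rule itself limits the Cd3 genes. Of the 55 members at day 13, 8 held 1 Cd3 UMI and the others none. S100a8, S100a9 and Ly6g of neutrophils were at 0 on both days. The B cell and natural killer lists summed to 94.4 and 107 CPM at day 13.

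Against the Cd209a-positive barcodes, 482 of 4334 genes (11.1%) were 2-fold or more higher in members at day 13 and 567 (13.1%) were lower. At day 19, 191 of 1602 (11.9%) were higher and 303 (18.9%) lower. Genes are named here by the smaller of their ratios on both days. Highest by that rule was Fabp5, a fatty acid binding protein, at 1858 against 18.3 CPM at day 13 (log2 ratio 6.67, 6.08 to 7.33) and 2230 against 6.84 at day 19. Cd63, a tetraspanin of late endosomes, stood at 811 against 9.53 CPM at day 13 and 1032 against 16.0 at day 19. Both are genes whose levels in the Cd209a-positive barcodes were near 0. Tmem123, a surface mucin-like protein, had 2007 CPM at day 13 and 2341 at day 19, with a UMI in every one of the 66 members. Il4i1, H2-Q7, Relb, Samsn1 and Bcl2a1b, described with their groups, were also among the 10 highest. The last of the 10 were Basp1, a membrane-bound signaling protein, and Arl5c, a small GTPase of the Arf family, with log2 ratios of 2.87 and 2.71 at day 13 and 3.80 and 3.52 at day 19.

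The genes furthest below the Cd209a-positive level included a lectin, chemokines and immediate early genes. Clec10a had 0 UMIs in the day-19 members, against 520 CPM. The chemokines Ccl9 and Ccl6 stood at 13.9 and 18.6 CPM at day 13 against 209 and 253 CPM. Ccl6 and Ccl9 belong to a family of similar genes, and the sources do not state how reads shared between such copies were counted. Trf, transferrin, was at 12.4 against 234 CPM, and Anxa1, an annexin, at 24.8 against 323. The immediate early genes Egr1 and Nr4a1 stood at 68.1 and 246 CPM at day 13 against 540 and 1276. Wfdc17, a small secreted protein, Ahnak, a large scaffold protein, and Cd7 were lower on both days as well, with log2 ratios of -2.75, -2.58 and -4.16 at day 13.

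**Figure D2:**
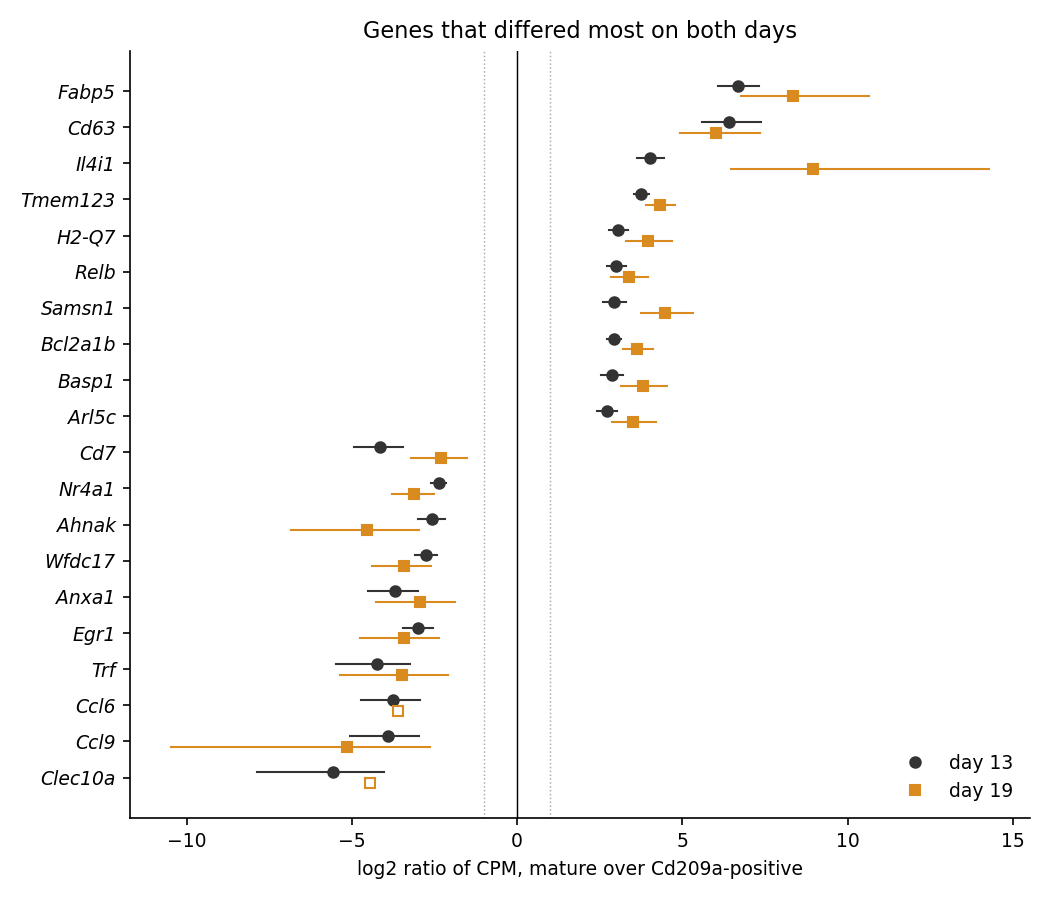
Log2 ratio of summed CPM, mature over Cd209a-positive, for the 10 genes furthest above and the 10 furthest below on both days; circles are day 13, squares day 19, lines are 95% exact intervals for counting error and open squares are bounds from a count of 0. Dotted lines mark a 2-fold difference, and all 20 genes lie outside them on both days by the rule that chose them.

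Most compared genes of cell movement and shape were higher in the members. Fscn1 bundles actin in the long processes of mature dendritic cells. Apart from Fscn1 and Ccr7, 10 of 13 compared members of this list were 2-fold or more higher at day 13 (11.1% of all genes) and none lower (13.1%). Their median log2 ratio was 2.37 where the median over all genes was 0.01. At day 19, 6 of 7 were higher (11.9%) and none lower (18.9%), with a median of 2.85. Marcks and Marcksl1, which link actin to the membrane, stood at 516 and 2600 CPM at day 13 against 100 and 601. Myo1g, a myosin, had 599 against 129 CPM, and Samsn1, an adaptor protein, 560 against 73.0. Tbc1d4, which regulates vesicle traffic, had 464 against 27.0 CPM and Actn1, an actin crosslinker, 167 against 3.18. Adora2a, the receptor for adenosine, stood at 181 against 8.73 CPM, and Gpr183, an oxysterol receptor that guides cell positioning, at 234 against 120. Without the members that held macrophage RNA, 9 of 11 compared genes of the list were higher at day 13 (11.2% of all genes), with a median of 2.44.

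NF-kB carries the signal of receptors such as CD40 to the genes of maturation. It has a canonical arm, with Rela and Nfkb1, and an alternative arm, in which Map3k14 activates Relb and Nfkb2. Of 20 listed genes compared at day 13, 9 were 2-fold or more higher and none lower, where 11.1% and 13.1% of all genes were. At day 19, 7 of 16 were higher and 1 lower, where 11.9% and 18.9% of all genes were. Without the members that held macrophage RNA the day-13 counts were 7 and 1 of 19, the lower gene being Nfkb1 at a log2 ratio of -1.01. Relb stood at 850 against 106 CPM at day 13 (log2 ratio 3.0, 2.72 to 3.28) and at 859 against 82.1 at day 19 (3.39, 2.83 to 3.97). It was found in 54 of 55 members. Nfkb2 had 434 against 129 CPM, and Map3k14 173 against 72.3. The canonical subunits were not 2-fold higher at day 13. Rela was at 132 against 129 CPM, with a log2 ratio of 0.03 (-0.36 to 0.42), and Nfkb1 at 166 against 318 (-0.94, -1.26 to -0.63). At day 19 the ratio of Rela was 1.33 (0.66 to 1.99). Traf1 and Birc2, which sit below tumor necrosis factor receptors, were at 884 and 358 CPM in members against 267 and 54.0 at day 13.

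Promoter windows from RefSeq (GRCm38.p6), from 250 bases before to 50 after each start, were searched on both strands for the NF-kB consensus. The motif was present in 2581 of 27025 genes of the table, 9.55%, and in 8.46% of its windows. Among the genes compared on both days it was in 187 of 1273 (14.7%), among those 2-fold or more higher in members on both days in 18 of 94 (19.1%), and among those lower on both days in 19 of 118 (16.1%). In the NF-kB list, 17 of 21 genes matched the table and 9 held it, and of the 6 markers 5 matched and none held it. The windows of 4 genes that were higher in members are shown as the clearest cases among the lists, with the 10 matching bases in capitals. A match is a description of letters and no site of binding. The Nfkb2 window lies at chr19:46304673-46304732 on the plus strand and its match begins 39 bases before the start. Those of Tnfrsf9 (chr4:150927931-150927990), H2-Q7 (chr17:35438997-35439056) and Icosl (chr10:78069232-78069291) are also on the plus strand, with matches that begin 43, 133 and 111 bases before the start.
Nfkb2: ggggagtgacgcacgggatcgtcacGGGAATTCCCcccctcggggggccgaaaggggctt
Tnfrsf9: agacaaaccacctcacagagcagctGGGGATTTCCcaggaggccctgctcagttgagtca
H2-Q7: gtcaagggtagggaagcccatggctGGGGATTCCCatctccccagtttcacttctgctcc
Icosl: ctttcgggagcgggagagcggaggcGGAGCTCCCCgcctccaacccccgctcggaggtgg

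Of 9 costimulatory genes compared at day 13, 4 were 2-fold or more higher in members, 1 was lower and 4 passed neither line, and of 7 at day 19 the counts higher and lower were 4 and 1. Of all genes, 11.1% were higher and 13.1% lower at day 13 and 11.9% and 18.9% at day 19, so the 1 lower gene is near the share over all genes. Without the members that held macrophage RNA, 6 of 9 were higher at day 13, where 11.2% of all genes were, with Cd86 at a log2 ratio of 1.01 and Cd40 at 1.28. Cd80, a ligand of CD28, stood at 130 against 35.7 CPM at day 13 (log2 ratio 1.86, 1.32 to 2.42). Its partner Cd86 was at 531 against 321 CPM (0.73, 0.52 to 0.94) at day 13 and 725 against 353 (1.04) at day 19. Icosl, the ligand of ICOS, had 265 against 96.9 CPM and Icam1, an adhesion molecule, 432 against 175. Cd40 was at 619 against 318 CPM, a log2 ratio of 0.96. Tnfrsf9, which encodes 4-1BB, had 172 against 9.53 CPM but was found in 20 of 55 members. Cd48 alone in this list was lower, at 75.9 against 225 CPM.

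Of 8 compared genes in the list of ligands that restrain T cells and related receptors, 4 were 2-fold or more higher at day 13 (11.1% of all genes) and 1 lower (13.1%). Cd274, which encodes PD-L1, stood at 382 against 67.5 CPM at day 13 (log2 ratio 2.50, 2.14 to 2.88) and 701 against 88.9 at day 19 (2.98, 2.42 to 3.56), and 61 of the 66 members held a UMI of it. Cd200, whose receptor dampens myeloid cells, had 265 against 1.59 CPM. Pvr, a ligand of TIGIT, and Fas, a death receptor, were at 61.9 and 88.3 CPM against 18.3 and 22.2. Lgals9, a ligand of TIM-3, was lower, at 203 against 488 CPM.

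The chemokines were mixed, and some of them moved with the macrophage RNA. At day 13, 7 of 12 compared chemokines were 2-fold or more higher in members (11.1% of all genes) and 3 lower (13.1%), with a median log2 ratio of 1.51. At day 19, 4 of 9 were higher (11.9%) and 4 lower (18.9%), with a median of -0.50. Without the members that held macrophage RNA the day-13 counts were 5 and 5 of 11 and the median was -0.82. In that comparison 11.2% of all genes were higher and 18.4% lower. Ccl2, which draws monocytes, was at 201 CPM in all members, a log2 ratio of 1.59, and at a ratio of -4.76 without those 13. Cxcl2 stood at 972 CPM in the 13 members and 4.93 CPM in the other 42. Ccl22, Ccl17, Ccl5, Cxcl9 and Cxcl16 stayed 2-fold or more higher without them. Cxcl16, a ligand of CXCR6 on T cells, was at 1115 against 262 CPM with a UMI in all 55 members at day 13. Cxcl9, a ligand of CXCR3, had 1037 against 386 CPM, whereas Cxcl10, another, had 986 against 1760, which is less than 2-fold apart. Ccl17 stood at 104 against 25.4 CPM, and 1 member held 47.8% of it. Ccl4 was at 471 against 1536 CPM, and at 29.6 CPM in the 42 members with little macrophage RNA, a log2 ratio of -5.70 (-6.66 to -4.89).

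Ccl5, which draws T cells, stood at 6004 CPM in members at day 13 and 7259 at day 19, against 1381 and 757 in Cd209a-positive barcodes. Members held 0 to 318 UMIs at day 13 with a median of 46. Ccl5 is also a T cell product, and T cell barcodes of the same captures stood at 4932 CPM at day 13. Droplets with 10 to 100 UMIs, taken as empty, held 3069 CPM. The part of free RNA in the members' Ccl5 was not tested.

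Of the cytokines, Il15ra, the interleukin receptor chain that presents its ligand to T cells, stood at 71.2 against 11.1 CPM and Ebi3, a subunit shared by several interleukins, at 184 against 60.3, with 1 member holding 49.6% of Ebi3. Il1rn, the antagonist of the interleukin-1 receptor, was at 906 against 80.2 CPM at day 13, a log2 ratio of 3.50 that was 2.79 without the members holding macrophage RNA. At day 19, without the member holding macrophage RNA, the Il1rn ratio was 0.66 (0.17 to 1.13). Tgfb1 stood at 311 against 572 CPM at day 13, a log2 ratio of -0.88 that was -1.63 without the members holding macrophage RNA. Of 8 compared cytokine genes, 3 were 2-fold or more higher at day 13 (11.1% of all genes) and 0 lower (13.1%). Without those members 2 of 7 were higher (11.2%) and 3 lower (18.4%). At day 19, 1 of 4 compared cytokine genes was higher (11.9%) and 1 lower (18.9%). Socs2, a suppressor of cytokine signaling, stood at 274 against 7.94 CPM at day 13 and at 552 against 9.12 at day 19.

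The counts of MHC class II genes lay near those of all genes. Of 13 compared other than H2-Ab1 at day 13, 2 were 2-fold or more higher (11.1% of all genes) and 3 lower (13.1%), with a median log2 ratio of 0.03. Of the main chains, H2-Aa stood at 8878 against 9582 CPM at day 13 and H2-Eb1 at 7659 against 6808. H2-Ab1 chose the members and is not counted. Cd74, the invariant chain, had 25918 against 33262 CPM. H2-Eb2, a seldom used class II chain, had 161 CPM in members and 0 UMIs in 126 Cd209a-positive barcodes, a log2 ratio of at least 6.08. The peptide exchange factor genes H2-DMa and H2-DMb1 were lower, at 282 and 328 CPM against 789 and 1178, whereas H2-DMb2 was higher, at 279 against 115. H2-DMb1 and H2-DMb2 are near copies, and the deposited counts do not show how reads that fit both were treated. March1, the ligase that sends class II from the surface for degradation, stood at 24.8 against 73.0 CPM.

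Of the MHC class I genes, 6 of 17 were 2-fold or more higher at day 13 (11.1% of all genes) and 5 of 15 at day 19 (11.9%), with none lower on either day (13.1% and 18.9%). H2-K1, a classical chain, stood at 4908 against 1724 CPM at day 13 and Psme2, a proteasome activator, at 1887 against 528. Tap2, which pumps peptides into the endoplasmic reticulum, Psmb9 and Nlrc5, the class I activator, had 395, 845 and 111 CPM against 164, 391 and 45.3. H2-Q7, at 876 against 105 CPM, has near copies in its gene cluster, so its own part in these reads is uncertain.

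Of the genes that promote or oppose cell death, 7 of 11 were 2-fold or more higher at day 13 (11.1% of all genes) and 5 of 10 at day 19 (11.9%), with none lower (13.1% and 18.9%). Bcl2a1b and Bcl2a1d, near copies of an NF-kB controlled survival gene, stood at 1503 and 427 CPM against 198 and 82.6 at day 13. Serpinb9, an inhibitor of granzyme B, had 320 against 9.53 CPM, and Serpinb6b 260 against 5.56. Cflar, which blocks death receptor signals, was at 259 against 84.2 CPM.

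Transcription factors were mixed. Irf8 stood at 760 against 181 CPM at day 13 and 1190 against 379 at day 19. Batf3 had 108 against 33.3 CPM at day 13, Spib 60.4 against 14.3, and Zbtb46, a factor of classical dendritic cells, 91.3 against 38.9. Irf8 and Batf3 are also factors of type 1 cells, in which list Clec9a was at 4.64 against 40.5 CPM. Nr4a3 and Stat4 were at 520 and 279 CPM against 143 and 69.9. In all, 8 of 17 compared factors were 2-fold or more higher at day 13 (11.1% of all genes) and 2 lower (13.1%).

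Over all day-13 members, 4 of 12 compared uptake receptors were 2-fold or more lower (13.1% of all genes) and 3 higher (11.1%), with a median log2 ratio of -0.51. Without the members that held macrophage RNA, 9 of 10 were lower, where 18.4% of all genes were, and the median was -3.21; the other was Axl, at a log2 ratio of 1.28. At day 19, 7 of 7 were lower, where 18.9% of all genes were. Fcer1g, the shared chain of Fc receptors, stood at 1352 against 2507 CPM at day 13 and Fcgr1 at 305 against 487. Ly75, an endocytic receptor known as DEC-205, went the other way, at 88.3 against 4.76 CPM, as did Axl, which binds dying cells, at 286 against 125.

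Set against the 12 Xcr1-positive barcodes of day 13, members had 536 of 2355 compared genes 2-fold or more higher (22.8%) and 252 lower (10.7%). Fabp5 had no UMI in those 12, with a log2 ratio of at least 6.69. Relb stood at 850 against 72.2 CPM and Ccl22 at 526 against 6.01. The 2 Xcr1-positive barcodes of day 19 were not compared.

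The antibody tags gave a second readout from the same droplets. At day 13, 5 of 138 tags (3.62%) had a 2-fold or more higher share of tag UMIs in members than in Cd209a-positive barcodes and 2 (1.45%) a lower one. At day 19, 6 of 137 (4.38%) were higher and 0 lower. The tag for I-A/I-E, the MHC class II protein, was highest. Members held 38 to 432 UMIs of it at day 13 with a median of 159, Cd209a-positive barcodes a median of 28 and T cell barcodes 5. All 55 members lay above the Cd209a-positive median and 33 above its highest barcode. At day 19 the median was 132 against 18, and 1 of 11 members was not above the median of the comparison group. The log2 ratio was 2.09 (2.04 to 2.14) at day 13 and 2.45 (2.32 to 2.57) at day 19. H2-Ab1 chose the members, but the comparison group had to pass the same minimum. The RNA of H2-Aa and H2-Eb1 had log2 ratios of -0.11 and 0.17 at day 13.

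CD86, the costimulatory protein, followed with a median of 34 tag UMIs in members against 11 at day 13, and 17 against 5 at day 19. CD54, the product of Icam1, had medians of 10 against 4 and 8 against 3. Ly6A, also called Sca-1, had 13 against 4 and 11 against 2. For CD274, or PD-L1, the medians were 9 against 5 at day 13 (log2 ratio 0.89, 0.73 to 1.04) and 9 against 3 at day 19 (1.5, 1.13 to 1.87). Thus 4 of these 5 proteins were 2-fold or more higher on both days, and CD274 at day 19 alone. The difference between the days was not tested. The isotype control tags, which give the background, had means of 6.65 to 12.9 UMIs per member at day 13 and 3.18 to 7.09 at day 19. In Cd209a-positive barcodes these means were 6.38 to 12.8 and 3.05 to 6.35. The members' day-13 medians of CD54 and CD274 lay within the range of the control means.

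Several tags did not separate the groups. CD197, the protein of Ccr7, had a median of 53 UMIs in members, 55.5 in Cd209a-positive and 55 in T cell barcodes at day 13, although the RNA differed by a log2 ratio of 4.99. Tags of other genes with higher RNA in members also had close shares of tag UMIs at day 13. The log2 ratio was -0.03 for CD200, -0.08 for CD137, the product of Tnfrsf9, 0.01 for CD63 and 0.13 for CD80. CD3 and TCRB were at medians of 38 and 7 in members and at 38 and 7 in T cell barcodes. Some T cell tags did differ from T cell barcodes, of which 2 are given here, chosen after their values were seen. The tag CD90.2, the protein of Thy1, had a median of 3 UMIs in members and in Cd209a-positive barcodes and 12 in T cell barcodes at day 13, and 1, 1 and 10 at day 19. For CD5, a surface protein of T cells, the medians at day 13 were 6, 5 and 10, and at day 19 they were 3, 3 and 6. For both tags the members' medians were within 1 UMI of the Cd209a-positive ones. Some sums came from 1 barcode. Of the CD1d UMIs at day 13, 82.4% came from 1 member, whose group median was 6 against 5. In the comparison group, 1 barcode held 86.2% of the Gr1 and 1 held 75.6% of the CD150 UMIs. The Gr1 and CD150 medians were 8 and 12 in members against 9 and 13, so the lower shares of both rested on single barcodes.

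**Figure D3:**
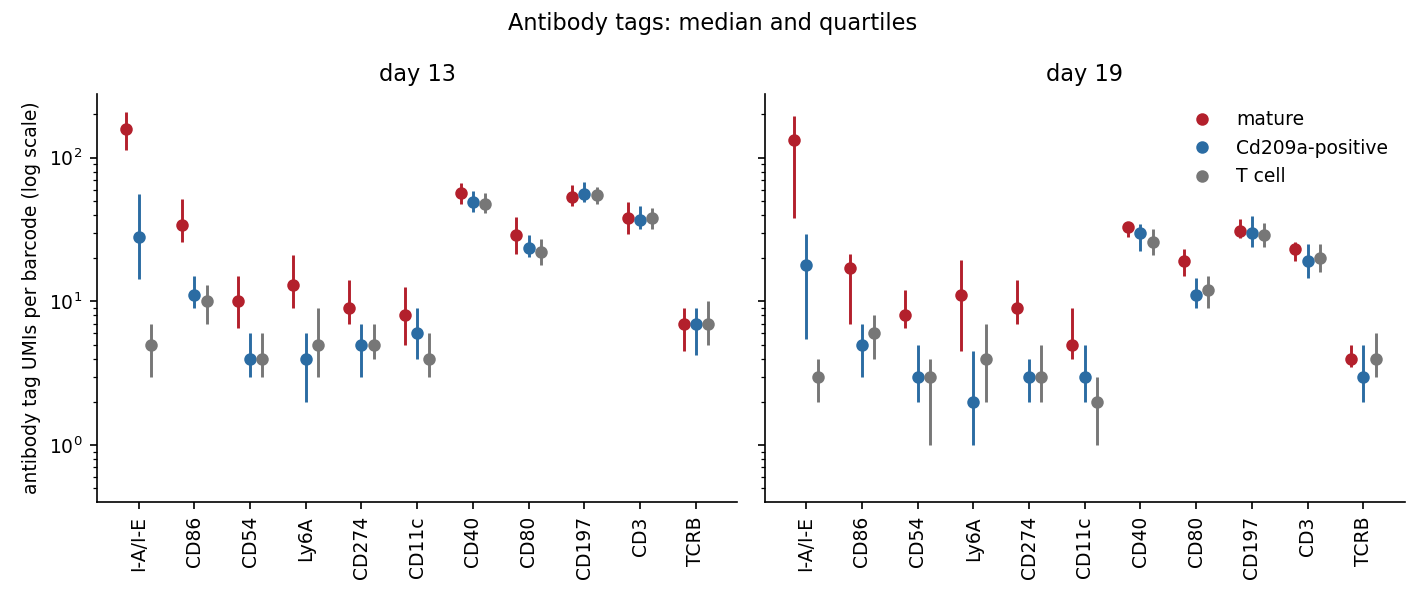
Antibody tag UMIs per barcode on a log axis for mature members, Cd209a-positive barcodes and T cell barcodes at each day; points are medians and lines run from the lower to the upper quartile. I-A/I-E, CD86, CD54 and Ly6A stand above both other groups on both days, whereas the quartile ranges of CD197, CD3 and TCRB overlap in all 3 groups.

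Between the days, 69 of 2191 compared genes (3.15%) were 2-fold or more higher in the day-19 members and 203 (9.27%) lower. The Cd209a-positive barcodes had 22 of 3860 (0.570%) higher and 104 (2.69%) lower. The number of mice, pooling and capture differ between the days along with time, and their parts cannot be told apart. None of the 4 markers outside the rule passed 2-fold, with log2 ratios that had a median of -0.12. None of the 9 costimulatory, 16 class I and 11 survival genes compared passed 2-fold either, though with 3.15% and 9.27% of all genes past it few would be counted in lists of this size. Of 18 NF-kB genes 2 were higher and 1 lower, of 6 listed regulatory enzymes and factors 1 was higher and 2 lower, and of 15 lysosome and protease genes 5 were lower. Of 7 uptake receptors 4 were lower and 1 higher, and of 10 chemokines 4 were lower and 0 higher. Without the members holding macrophage RNA, 2 of 4 uptake receptors and 0 of 6 chemokines were lower (8.06% of all genes). In barcodes with the marker thresholds inside contig tables, 2 of 16 lysosome and protease genes were higher (2.43%) and 0 lower (1.59%). The part of macrophage RNA in the lysosome count was not tested.

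Most compared genes that respond to type I interferon were lower in the day-19 members. Cells that sense interferon raise these antiviral genes through Stat2 and Irf9. Of 15 compared, 10 were 2-fold or more lower and none higher, where 9.27% of all genes compared were lower and 3.15% higher. All 15 ratios were below 0, and the median log2 ratio was -1.87. In Cd209a-positive barcodes 1 of the 15 was 2-fold lower, where 2.69% of all genes were, and the median was -0.20. Without the members holding macrophage RNA, 14 genes kept the 50 UMIs needed. Of these, 9 were 2-fold or more lower, where 8.06% of all genes were, and the median was -1.89. The 71 barcodes that met the marker thresholds inside the contig tables and held no microglia gene, which share no barcode with the members, had 6 of 15 lower and a median of -0.72; of all 3337 genes compared there, 1.59% were lower and 2.43% higher. T cell barcodes had 11 of 15 lower and a median of -1.15, where 2.38% of all 11472 genes compared were lower and 2.41% higher. Empty droplets had 8 of 15 lower and a median of -1.04, with ratios scaled to all their UMIs, antibody and multiplexing tags included. Scaled to gene UMIs alone, 2.85% of 7751 genes were lower there and 2.59% higher, so this share and that count are not on one scale. The median ratio was thus below 0 in every one of these populations and nearest 0 in the Cd209a-positive barcodes. Whether the members differ from the others in this was not tested.

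Rsad2, which encodes viperin, stood at 655 CPM in members at day 13 and 118 at day 19 (log2 ratio -2.47, -3.32 to -1.73), against 865 and 809 in Cd209a-positive barcodes. Irf7, the factor that amplifies interferon, stood at 3431 and 1190 CPM, a log2 ratio of -1.53, against 2538 and 1997 CPM. Isg15, a ubiquitin-like protein, was at 5185 and 2956 CPM in members and 2215 and 2130 in Cd209a-positive barcodes. Ifit1bl1, not in the list, stood at 303 and 15.8 CPM. Summed over the 15 genes, members ran from 2435 to 61600 CPM at day 13 with a median of 16044, and from 1957 to 25119 CPM at day 19 with a median of 6333. The days overlapped: 21 of 55 day-13 members lay above the highest day-19 member, and 9 of 11 day-19 members lay below the day-13 median. Cd209a-positive medians were 19105 and 16027 CPM.

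**Figure D4:**
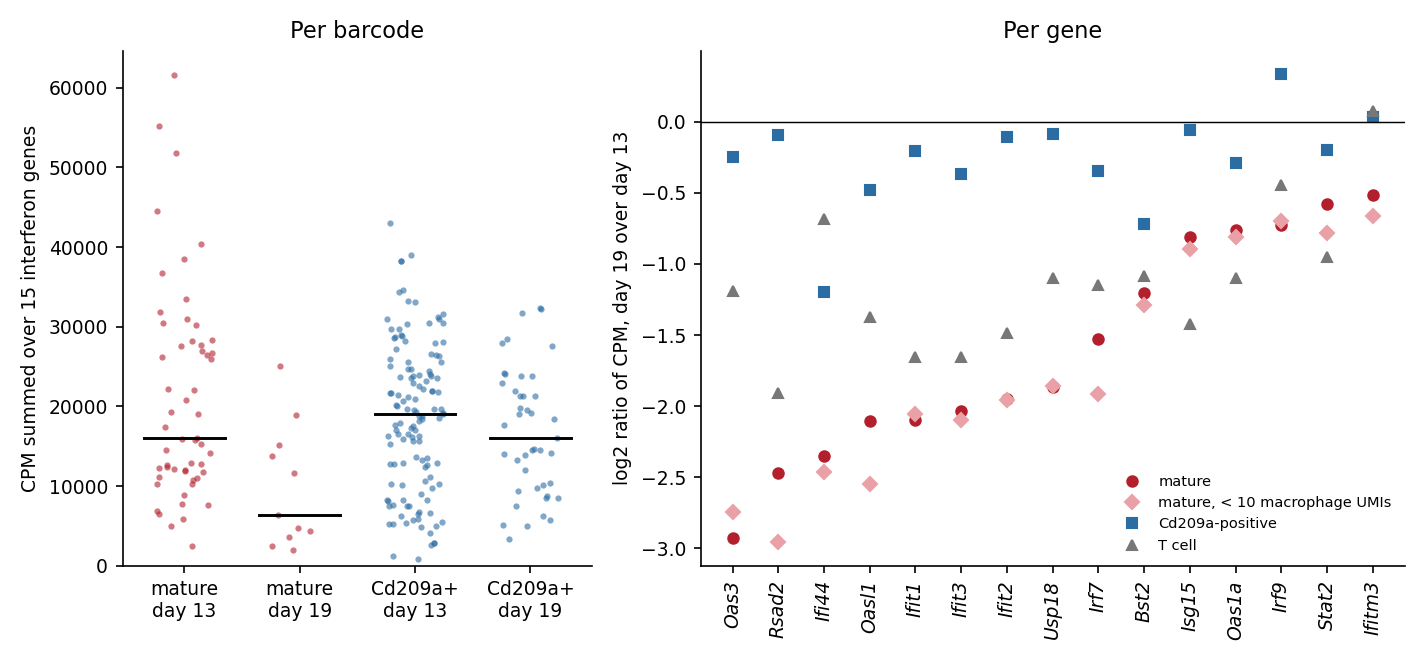
Left, CPM summed over 15 type I interferon genes in each barcode, with medians as black bars; right, log2 ratio of CPM, day 19 over day 13, for each gene in all members, members with fewer than 10 macrophage UMIs, Cd209a-positive and T cell barcodes. The members' ratios lie below 0 for all 15 genes and the day-19 median of 6333 CPM is below the day-13 median of 16044.

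Most other genes furthest lower at day 19 were those of macrophages and monocytes. Apoe stood at 1511 and 39.4 CPM, C1qa, C1qb and C1qc at 122, 249 and 161 CPM at day 13 and at 7.88, 15.8 and 7.88 at day 19, and Ms4a7 at 129 and 7.88. All 11 compared genes of the monocyte and macrophage list were 2-fold or more lower, with a median log2 ratio of -3.96. Apoe was found in 17 of 55 members at day 13. In the barcodes with the marker thresholds inside contig tables the list's median was 1.17, with 6 of 10 higher. Without the members holding macrophage RNA, 8.06% of 1488 genes were lower, against 9.27% of 2191 over all members, and 3.16% were higher. Ly6c2 and Slfn4 kept ratios of -5.47 and -3.89 there; Ly6c2 stood at 2638 CPM at day 13, with a UMI in 38 of 55 members, and at 110 CPM at day 19, with a UMI in 3 of 11. The chemokines Ccl3 and Ccl4 stood at 124 and 471 CPM at day 13 and at 7.88 and 31.5 at day 19. In the 42 day-13 members with little macrophage RNA they were at 19.7 and 29.6 CPM.

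The genes furthest higher at day 19 rested in part on single members. A single member of the 11 held all UMIs of Hmox1, the heme-degrading enzyme, and single members held 94.7% of Osm, 91.7% of Il1r2 and 62.7% of Hspa1b. Spread over more members were Irf2bp2, a corepressor, at 69.7 and 323 CPM with a UMI in 8 of 11 members, Ndrg1, a stress and hypoxia response gene, at 82.1 and 363 CPM in 8 of 11, and Flot1, a membrane raft protein, at 52.6 and 213 CPM in 9 of 11. Ifitm1 stood at 381 and 1379 CPM, found in 8 of 11. Gpr171 and Cfp were at 55.7 and 46.4 CPM at day 13 and at 205 and 166 CPM at day 19.

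Variation among the members was ranked over both days together, by a measure that favours abundant genes. With each barcode thinned to 5000 UMIs, the Fano factor, the variance over the mean, was highest for Cst3, a protease inhibitor of classical dendritic cells, at 68.3, with 0 to 252 UMIs and a median of 20.5 per member. Ccl5 followed at 46.4, Fth1, ferritin, at 44.2 and Isg15 at 29.7. Apoe, Lyz2 and Ly6c2, at 34.4, 23.8 and 26.9, had medians of 0, 0 and 2 and highest values of 57, 45 and 76, so most thinned UMIs of Apoe and Lyz2 lay in a minority of members. The days differed in these genes, with mean thinned UMIs at day 13 and day 19 of 11 and 0.545 for Ly6c2, 4.35 and 0.273 for Apoe, and 29 and 15.4 for Isg15. Actb, Crip1 and Tmsb4x completed the 10. Of these 10 genes, 7 were also in the top 10 without thinning.

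The multiplexing tags, which the labels do not link to pools or mice, could seldom be read in members. A tag with at least 10 UMIs and 80% of the tag UMIs was found in 11 of 55 at day 13 and 1 of 11 at day 19, against 52.7% and 39.5% of T cell barcodes. At day 13, the 11 fell on CMO302 (4), CMO303 (6) and CMO304 (1), so members carried at least 3 of the 4 tags.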

How the data were processed

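Cells sorted from the tumors were captured once at day 13 and once at day 19. The deposited matrices hold raw counts of UMIs for every barcode, for genes, 138 antibody tags and 4 multiplexing tags, and none was normalized by the authors; per the file headers they come from Cell Ranger. The submitters' processing notes name mm10, bcl2fastq 2.20, Cell Ranger 4.0.0, STAR 2.7.5c, Seurat and R 4.1.2, with no role given. The 2 matrices hold 736611 and 735849 barcodes and 144565182 and 81224453 gene UMIs.

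UMIs were summed over the barcodes of a group and day and scaled to CPM. Ratios carry exact 95% intervals for 2 Poisson counts; shares carry exact Clopper-Pearson intervals. Where a group's sum was 0, a floor of 3 UMIs took its place and the ratio is a bound. Genes needed 50 UMIs in both sums together. T cell barcodes were those in a contig table with no UMI of H2-Ab1 or Fscn1. Comparison barcodes had to pass the members' limits other than those on Fscn1 and Ccr7. Thinning drew 5000 UMIs from each barcode, and 500 T cell barcodes per day were sampled for it. No doublet caller was run. Python 3.11.15 was used with numpy 2.4.6, scipy 1.17.1, pandas 2.3.3 and matplotlib 3.10.9.

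Genes named against Cd209a-positive barcodes were the 10 highest and 10 lowest on both days, with at least 100 UMIs in both sums on each day, ranked by the smaller ratio. Between the days they were the 10 highest and 10 lowest, and members of fixed gene lists could also be named. The members and lists were chosen with earlier results of these data known. The line of 10 macrophage UMIs and the comparison of contig-table barcodes between the days were added after seeing the data. On simulated counts for members against Cd209a-positive barcodes at day 13, with 4305 genes, 82 of 96 genes changed 2-fold and 89 of 89 changed 4-fold had an interval on the right side of 0. The simulated sums were Poisson counts, as the intervals assume, without the variation between barcodes that the data hold.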

Additional observations from a re-analysis of the deposited data

Results flagged for a closer look

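The members' ratio to Cd209a-positive barcodes had opposite signs on the 2 days for 5 genes among those compared on both days and eligible to be named. To be listed, a gene needed intervals on opposite sides of 0, at least 1 ratio past 2-fold and a smaller ratio above a set minimum size. Ly6c2, a surface protein of monocytes that interferon also raises, had a log2 ratio of 0.90 at day 13 and -3.08 at day 19; without the members holding macrophage RNA these were 0.17 (0.03 to 0.30) and -4.70. Oasl1, an interferon-induced gene, had 0.60 and -1.02. Osm, a cytokine, had -0.70 and 1.06, and Hspa1b, a heat shock gene, -0.86 and 1.23; both rested largely on 1 member at day 19, and without the members holding macrophage RNA the signs were no longer opposite, at -1.90 and -3.00 for Osm and -0.75 and -0.004 (-0.62 to 0.57) for Hspa1b. Fdps, an enzyme of sterol synthesis, had -1.68 and 0.90, and without the members holding macrophage RNA -1.39 and 0.19 (-0.78 to 1.08), which no longer differ in sign beyond counting error. With 1 capture for each day, the difference between the days was not tested for any of them.

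Barcodes with the members' marker levels were also found where the rule does not look. In the contig tables, 51 barcodes at day 13 and 20 at day 19 met the thresholds for Fscn1, Ccr7 and H2-Ab1 and held no UMI of P2ry12 or Tmem119. Their median depths were 13343 and 18850 UMIs, against 9348 and 9681 in members. How many of these held 2 cells was not tested.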

How the results depend on the processing

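No paired analysis was possible because each day is 1 capture and the replicate labels share no number between groups with a link to the barcodes. With 11 members at day 19, depth limits most values of that day, and 1 member can hold most UMIs of a gene. With no minimum on H2-Ab1 the rule would take 109 barcodes at day 13 and 25 at day 19, and of the members 11 and 1 had a pure multiplexing tag.

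Against Cd209a-positive barcodes at day 13 the higher and lower counts were 865 and 956 with a minimum of 20 UMIs, 150 and 174 with 200, and 116 and 162 with tag purity; with thinned barcodes the higher count was 297. At day 19 they were 496 and 652, 34 and 88, and 16 and 25, then 83 and 176 with thinned barcodes and 337 and 478 with no H2-Ab1 minimum. Between the days they were 282 and 547 with 20 UMIs, 8 and 40 with 200, and 29 and 88 with thinned barcodes; the lower count was 109 with tag purity. With 2 choices made after seeing the data it was 120 in members with fewer than 10 macrophage UMIs and 53 in contig-table barcodes. Higher and lower antibody tags numbered 2 and 0 at day 13 and 1 and 1 at day 19 with tag purity. Leaving out each multiplexing tag in turn gave 472 to 481 and 520 to 605 at day 13, 175 to 191 and 293 to 303 at day 19, and 59 to 77 and 171 to 223 between the days.

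Directions turned in 21 values. In contig-table barcodes the day ratios were 0.81 for Apoe, 1.94 for C1qa, 0.84 for C1qb, 1.98 for C1qc, 4.05 for Ccl3, 1.28 for Ccl4, 0.88 for Slfn4, -0.65 for Gpr171, -0.88 for Hspa1b, -0.81 for Ifitm1 and -0.38 for Il1r2, and the medians were 0.65 for uptake receptors and 1.17 for monocyte and macrophage genes. Without the members holding macrophage RNA, Ccl2 was at -4.76 and the chemokine median at -0.82 at day 13, and Hspa1b at -0.004 and Osm at -3.00 at day 19. With tag purity H2-DMb2 was at -0.47 and the CD1d tag at -0.76 at day 13, and Ly6A at -4.02 at day 19. With no H2-Ab1 minimum Oasl1 was at 0.31 at day 19. Apart from the macrophage RNA and the source of barcodes, which are named choices, the cause was not tested. Median ratio scaling shifted the median of all genes to -0.14 at day 13, -0.20 at day 19 and -0.11 between the days.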
